A study of Mus musculus with 4 samples.

Results

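The enzymes described here are 8 sulfotransferases of mouse liver other than Sult1a1, namely Sult1b1, Sult1c2, Sult1d1, Sult1e1, Sult2a1, Sult2a5, Sult3a1 and Sult5a1. They were found on the array by gene name, as 13 probes of 8 genes among 56605 probes, and 19 genes on the array carry a Sult name. The arrays were hybridized with liver RNA of C57BL/6 wild-type mice labelled as 6 weeks of age and treated with aristolochic acid I (AAI), a nephrotoxic plant nitro compound, or with its corn oil vehicle. AAI was injected intraperitoneally at 5 mg/kg/day in females and at 2 mg/kg/day in males, on 5 days a week for 3 weeks. RNA from 5 mice of a group was pooled, and each of the 4 groups (corn oil-treated females, AAI-treated females, corn oil-treated males and AAI-treated males) was measured on 1 array. Corn oil-treated mice are called controls below. A single array stood for each group, so the comparisons have no replicate check and no p-value, and a difference between the sexes in the response to AAI cannot be told apart from the difference in dose.

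Cytosolic sulfotransferases transfer a sulfonate group from the donor 3'-phosphoadenosine-5'-phosphosulfate (PAPS) to hydroxyl or amino groups of hormones, bile acids, neurotransmitters and xenobiotics. The products are usually more soluble and less active, but some sulfate esters are reactive, and sulfonation of reduced AAI metabolites has been studied as a route to DNA adducts. In mouse liver several of these enzymes differ between the sexes, under the control of sex steroids and of the pattern of growth hormone release.

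Levels are given as log2 of the quantile-normalized array signal, and ratios as differences of these values. Where a gene has several probes, the SD of their log2 ratios shows how far the array itself disagrees. Its median was 0.25 for AAI over corn oil in females (9129 genes), 0.24 in males (8619 genes) and 0.23 between the control sexes (8894 genes). This SD holds no variation between pools or hybridizations, so a ratio past it is not thereby shown to be a change. A gene was counted when its brightest probe differed at least 2-fold and was well above background by the scanner software on at least 1 of the 2 arrays. Where a probe was dim on the other array, the fold is a bound, written as "at least", against the higher of the probe's own signal and the lowest signal among probes well above background on that array. Such a bound holds for this processing only. With another background correction, normexp, some of these ratios lay under it. Between 74.7% and 81.5% of all probes were well above background on an array and no spot was saturated. All 10 hepatocyte markers were well above background on every array, with a summed signal between 1983880 and 2380583. The 10 skeletal muscle markers were also all at least 2-fold higher after AAI in both sexes, and their summed signal was 1403 in control and 38968 in AAI-treated females, and 4831 and 295734 in males. Their part in the results on sulfotransferases was not tested.

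The probes of the Sult2a genes are shown first, because their resemblance limits what a signal of Sult2a1 or Sult2a5 can be credited to. The Sult2a1 probe lies at chr7:14381602-14381661 (mm9, minus strand), and its bases match those of the Sult2a4 probe at 51 of 54 overlapping positions and those of the Sult2a2 probe at 54 of 59. In the array annotation the Sult2a1 probe is also assigned to a Sult2a4 transcript. The following stretches of 30 bases are shown with the 27 bases common to the 3 probes in capitals.
Sult2a1: TATCTTGAATACCTagATgTGGTCATAGAA
Sult2a2: TATCTTGAATACCTgaATaTGGTCATAGAA
Sult2a4: TATCTTGAATACCTagATgTGGTCATAGAA
Over this stretch Sult2a1 and Sult2a4 had the same 30 bases, so the signals of these genes are uncertain between them. The Sult2a5 probe spans an intron between chr7:14247879-14250418 (mm9, plus strand) and is assigned to Sult2a5 alone. Its best match among the other Sult probes was a Sult2a6 probe spanning chr7:14807912-14821984 (mm9, minus strand), with 38 of 54 bases identical, in capitals here.
Sult2a5: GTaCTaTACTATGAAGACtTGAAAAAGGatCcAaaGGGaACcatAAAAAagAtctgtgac
Sult2a6: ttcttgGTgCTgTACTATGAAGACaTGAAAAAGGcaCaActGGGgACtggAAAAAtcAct
The Sult2a2 probe and the brightest Sult2a6 probe are in turn annotated to Sult2a5 as well, so Sult2a5 transcripts may add to their signals.

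In control mice, 6 of the 8 sulfotransferase genes were at least 2-fold higher in females than in males, namely Sult1c2, Sult1d1, Sult1e1, Sult2a1, Sult2a5 and Sult3a1, and 0 of 8 were lower. Sult1d1 was past 2-fold only narrowly, with log2 ratios of 0.94 after normexp background correction and after background subtraction without detrending. Over all 30891 genes tested, 1.86% were at least 2-fold higher and 3.83% at least 2-fold lower in females. The median log2 ratio was 1.54 over the 8 genes and 0.03 over all genes tested. The 8 genes were chosen with earlier results of these data known, so the contrast with all genes, here and below, is a description only. Sult2a1 and Sult2a5 were not well above background in control males. For probes well above background on both arrays, which leaves Sult2a1 and Sult2a5 out, 4 genes were at least 2-fold higher in females and the median was 1.17. In the same comparison 8 of 10 skeletal muscle, 6 of 10 fat and 6 of 10 adrenal cortex markers were at least 2-fold lower in control females, and their part in it was not tested.

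Sult2a1, a hydroxysteroid sulfotransferase that acts on dehydroepiandrosterone and bile acids, had the widest range. Its log2 signal was 16.93 in control females, 15.90 in AAI-treated females, 4.25 in control males and 5.13 in AAI-treated males. The probe was near the top of the scale in both female pools and not well above background in control males. It was at least 6397-fold higher in control females than in control males, a log2 ratio of 12.64 that was 10.22 with normexp background correction. The log2 ratio of AAI over corn oil was -1.03 in females, a 2.05-fold lower signal. In AAI-treated males it was at least 1.80-fold above the control males (a log2 ratio of 0.85, and of 0.23 with normexp), and still 10.76 log2 units under AAI-treated females.

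Sult2a5, another member of the hydroxysteroid family, had log2 signals of 9.95 in control and 9.41 in AAI-treated females, against 2.06 and 3.37 in the corresponding males. Neither male array was well above background, so no ratio of AAI over corn oil was taken in males. The signal was at least 50.7-fold higher in control females than in control males, a log2 ratio of 5.66 that was 3.61 with normexp, and 1.45-fold lower in AAI-treated than in control females. Taken over all 8 probes of Sult2a1 to Sult2a6, every probe was lower in AAI-treated than in control females, with log2 ratios from -1.03 to -0.54. Several of these probes are annotated to the same genes and all were read on the same arrays, so they are not 8 separate readings. In males 2 of these 8 probes were well above background after corn oil and 3 after AAI, and the measured ratios of the 8 probes went both ways, 3 below 0 and 5 above, although 4 of the 8 did not clear background in males at all.

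Sult3a1, an amine sulfotransferase, was measured by probes at chr10:33599244-33599303 and chr10:33599125-33599184 (mm9, plus strand). The brighter probe had log2 signals of 12.92 in control females, 12.66 in AAI-treated females, 6.54 in control males and 9.91 in AAI-treated males. Both female pools lay above both male pools, and the male pools lay apart from each other. The signal was 83.6-fold higher in control females than in control males, the 7th largest ratio of the 29112 genes measured on both arrays. This log2 ratio of 6.39 was 5.37 with normexp. With the dimmer probe, which was not well above background in control males, it was at least 217-fold higher.

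Sult1e1, the estrogen sulfotransferase, had log2 signals of 8.61 in control females, 9.65 in AAI-treated females, 6.81 in control males and 9.94 in AAI-treated males. The lowest pool was that of control males, 3.48-fold under control females (a log2 ratio of 1.80, and of 1.21 with normexp), and both AAI-treated pools lay above both control pools. Sult1c2, which acts on small phenolic compounds, had log2 signals of 10.62 and 10.07 in control and AAI-treated females and of 9.34 and 9.64 in the males. Sult1d1, a catecholamine sulfotransferase, had 14.86 and 14.22 in females and 13.80 and 14.41 in males with its brighter probe. For both genes control females were highest and control males lowest, 2.43-fold apart for Sult1c2 and 2.09-fold for Sult1d1. The second Sult1d1 probe gave a 1.95-fold difference, just under the threshold.

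Sult1b1, which acts on thyroid hormones and phenols, had log2 signals of 11.74 and 12.77 in control and AAI-treated females and of 12.09 and 12.36 in the males. Sult5a1, at chr8:125666951-125667010 (mm9, minus strand), had 9.25 and 8.04 in females and 9.52 and 8.71 in males with its brightest probe. Between the control sexes these genes had log2 ratios of -0.35 and -0.27, both past the SD between probes of 0.23. Their other probes lay between -0.01 and 0.23. The probes of Sult1b1, Sult1d1 and Sult1e1 lie on the minus strand of chromosome 5 between 87942561 and 88005246 (mm9), and of these genes Sult1b1 was the one without a 2-fold difference between the sexes.

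**Figure D1:**
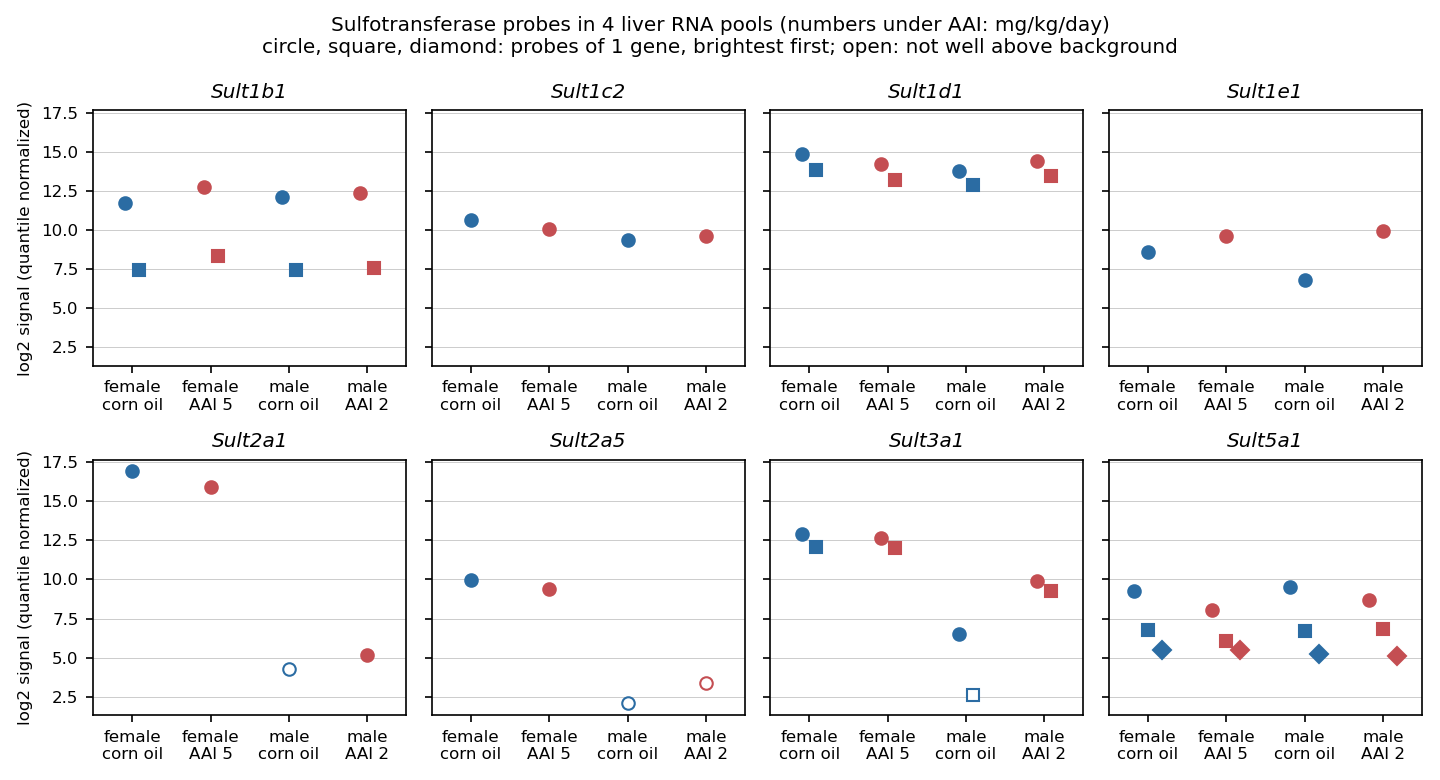
Log2 signal (y axis) of the 13 probes of the 8 sulfotransferase genes in the 4 pools of liver RNA (x axis, 1 array each), with blue for corn oil and red for AAI, circles for the brightest probe of a gene and open symbols for probes not well above background. Sult2a1, Sult2a5 and Sult3a1 stood between 9.41 and 16.93 in females with their brightest probes, and their lowest signals were those of control males, from 2.06 to 6.54.

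In females treated with 5 mg/kg/day AAI, 2 of the 8 genes, Sult2a1 and Sult5a1, were at least 2-fold lower than in control females, and 2 others, Sult1b1 and Sult1e1, were at least 2-fold higher. Of the 31682 genes tested, 2.91% were lower and 1.37% higher by this rule. The median log2 ratio was -0.55 over the 8 genes and 0.04 over all genes tested, and 6 of the 8 ratios were below 0.

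These 4 calls lay close to the threshold. The largest was that of Sult5a1, with a log2 ratio of -1.21 at the brightest probe, against -0.73 and -0.01 at its other probes, which were near the lower end of the scale with signals between 5.48 and 6.79 in females. These probes did not give 1 answer, and over their mean the ratio was -0.65. For Sult1b1 the ratios were 1.03 and 0.86 at its 2 probes, a 2.04-fold and a 1.82-fold higher signal. Sult1e1, with 1 probe, had a ratio of 1.05 and ranked 282nd from the highest of 29715 genes measured on both arrays. For other processing the ratio of Sult1b1 ran from 0.95 to 1.03, that of Sult1e1 from 0.85 to 1.07 and that of Sult2a1 from -1.03 to -0.99, so that none of these 3 calls held under every alternative.

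The remaining genes differed less. Both Sult1d1 probes had log2 ratios of -0.64, and the single Sult1c2 and Sult2a5 probes had -0.56 and -0.54. Each was past the SD between probes, which for a gene with 1 probe comes from other genes only. Sult3a1 had -0.26 and -0.01 at its 2 probes, so that its signal moved by no more than about the SD between probes.

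In males treated with 2 mg/kg/day AAI, 2 of the 7 genes tested, Sult1e1 and Sult3a1, were at least 2-fold higher than in control males, and 0 of 7 were lower. Of the 30539 genes tested, 3.51% were higher and 4.59% lower. The median log2 ratio was 0.61 over the 7 genes and 0.00 over all genes tested, and 6 of the 7 ratios were above 0.

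Sult3a1 was 10.4-fold higher with its brighter probe, the 120th largest ratio of 28434 genes measured on both arrays, and at least 31.7-fold higher with its dimmer probe. Sult1e1 was 8.77-fold higher and ranked 137th. Set beside control females, AAI-treated males had a Sult1e1 signal of 9.94 against 8.61 and a Sult3a1 signal of 9.91 against 12.92. The Sult1e1 signal of AAI-treated males was thus above that of both female pools, and the Sult3a1 signal was below both. Sult1d1 had log2 ratios of 0.61 and 0.59 at its 2 probes, and Sult1c2 of 0.30. Sult1b1 had 0.27 and 0.12, close to or under the SD between probes. The brightest Sult5a1 probe had -0.81, the only ratio below 0 among the brightest probes of the genes tested, and its other probes had 0.10 and -0.18.

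**Figure D2:**
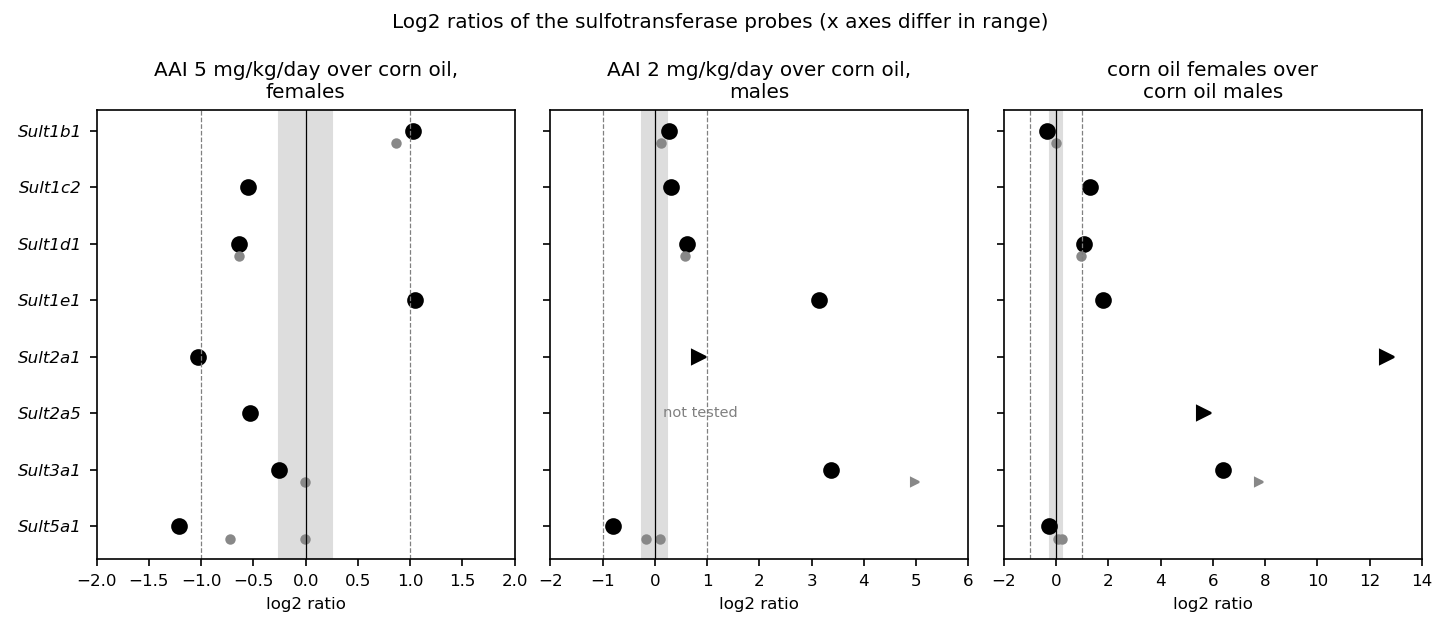
Log2 ratio (x axis, with a different range in each panel) of the sulfotransferase probes for AAI over corn oil in females and in males and for control females over males. Large black symbols are the brightest probe of a gene, small grey symbols its other probes, triangles are bounds, the grey band is the median SD between probes of a gene (0.25, 0.24 and 0.23) and dashed lines mark 2-fold. The 4 genes past 2-fold in females lay near the dashed lines, whereas Sult1e1 and Sult3a1 in males lay at 3.13 and 3.38.

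Markers of fat and of the adrenal gland moved with the comparison in males. Of 10 fat markers, 7 were at least 2-fold higher and 1 lower in AAI-treated males, with a summed signal of 9533 in control and 93985 in AAI-treated males, and in females 3 of 9 were higher, with sums of 5209 and 6446. The fat hormone Adipoq had log2 signals of 7.72 in control and 11.34 in AAI-treated males, and Ucp1, the uncoupling protein of brown fat, had 4.98 and 12.89. Adipoq was not well above background in control females, and Ucp1 in neither female pool. Of 10 adrenal cortex markers 7 were higher and 1 lower in AAI-treated males, with sums of 14330 and 68075, and 0 of 9 in females, where the sums were 15049 and 15594. Of 10 adrenal medulla markers 6 were higher and 1 lower in AAI-treated males, with sums of 12916 and 25113, and 0 of 9 passed 2-fold in females, with sums of 17358 and 12997. Of 9 testis markers 1 was higher and 1 lower in AAI-treated males, with sums of 1746 and 1557. Of 9 kidney markers tested 0 were higher and 1 was lower there, and of 9 intestine markers tested 1 was higher and 0 were lower. Sult1e1 is known from fat and testis as well as from liver. The part of such transcripts in the higher signals of Sult1e1 and Sult3a1 was not tested, and in RNA of a whole tissue fewer cells of a type and less RNA per cell cannot be told apart.

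Lists of liver genes known to differ between the sexes moved in the same arrays. Between the control sexes, 10 of 14 male-biased genes were at least 2-fold lower in females and 0 were higher. Of 17 female-biased genes, 12 were at least 2-fold higher in control females and 0 were lower, so not every listed gene showed its bias here. Of 14 male-biased genes, 10 were at least 2-fold lower in AAI-treated than in control males and 0 were higher, with a median log2 ratio of -2.60. Of the 16 female-biased genes tested, 8 were higher and 1, Cyp3a16, was lower in AAI-treated than in control males, with a median of 1.07. Cyp3a16 was not higher in control females than in control males, with a log2 ratio of -0.39. In females 2 of 14 male-biased genes were lower and 1 was higher, and of 17 female-biased genes 1 was lower and 0 were higher. None of the 8 sulfotransferases stands in these lists.

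The genes whose pattern over the 4 arrays lay nearest to that of a sulfotransferase were sought among 28236 genes well above background on all 4 arrays, by the Euclidean distance between their log2 signals after each gene was centred on its mean. This was done for Sult3a1, Sult1e1 and Sult5a1, the sulfotransferases with the widest range among such genes, and 4 arrays allow a description only. Nearest to Sult3a1 were Slc22a27 and Slc22a29, of the Slc22 family of organic ion transporters, at distances of 0.54 and 0.77, and the cytochrome P450 gene Cyp2b13 at 1.38. Slc22a27 had log2 signals of 11.80 and 12.07 in control and AAI-treated females and of 5.64 and 9.50 in the males. Nearest to Sult1e1 were the acute phase gene Orm3 at 0.16, the hydroxyacid oxidase gene Hao2 at 0.29 and Sult2a7 at 0.43. Orm3 had 12.03 and 13.20 in females and 10.24 and 13.26 in males. Nearest to Sult5a1 were Mptx1, Igsf1 and Gbp11, at distances from 0.07 to 0.13. The distances were not scaled to the range of a gene, 6.39 for Sult3a1 and 1.48 for Sult5a1. They therefore do not compare between these genes. The Sult5a1 pattern is that of its brightest probe, from which its other probes differed.

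The windows before the start sites of Sult3a1 and Sult1e1 are shown because these genes were the ones past 2-fold in males. The RefSeq table of promoters (GRCm38.p6), with 250 bases before and 50 after each start, held 8 windows for 7 of the 8 genes, all but Sult2a1. They were searched on both strands for TTCNNNGAA, the letters of STAT factor sites, for AGGTCA, the core letters of nuclear receptor sites, and for TATAAA. Of all 32851 windows in the table, 8.30% held the first, 16.3% the second and 13.6% the third. The Sult3a1 window at chr10:33857472-33857771 (plus strand) held 1 match to the STAT letters, in capitals, starting at -109 from the start site.
Sult3a1: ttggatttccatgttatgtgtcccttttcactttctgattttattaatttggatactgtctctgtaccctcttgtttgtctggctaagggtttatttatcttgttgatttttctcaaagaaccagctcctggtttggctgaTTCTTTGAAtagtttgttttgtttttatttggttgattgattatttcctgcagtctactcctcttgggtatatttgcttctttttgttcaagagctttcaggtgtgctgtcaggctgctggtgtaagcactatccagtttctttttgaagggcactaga
The Sult1e1 window at chr5:87591562-87591861 (minus strand) held 1 receptor core, on the opposite strand and in capitals, starting at -113.
Sult1e1: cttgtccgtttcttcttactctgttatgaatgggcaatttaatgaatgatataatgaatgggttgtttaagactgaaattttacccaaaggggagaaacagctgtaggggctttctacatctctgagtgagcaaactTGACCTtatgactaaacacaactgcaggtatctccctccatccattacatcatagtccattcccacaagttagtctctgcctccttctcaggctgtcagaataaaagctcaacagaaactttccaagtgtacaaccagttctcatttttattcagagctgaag
Of the other windows, 1 of the 2 for Sult1b1 held 2 receptor cores, and those for Sult1d1 and Sult2a5 held 1 TATAAA each, at 5 and -6. The Sult1d1 match was on the opposite strand and after the start site. The windows of Sult1c2 and Sult5a1 and the second of Sult1b1 held none of the letters searched. A match describes the letters in this window only.

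The other genes of sulfonation were described with lists written from general knowledge, but with earlier results of these data known. The counts are therefore not those of independent lists. Among the other cytosolic sulfotransferases, 7 of 9 tested were at least 2-fold higher in control females than in control males, with a median log2 ratio of 2.35, and 0 were lower. The Sult2a2, Sult2a3, Sult2a4 and brightest Sult2a6 probes are also annotated to other Sult2a genes, Sult2a1 and Sult2a5 among them. Their counts, here and after AAI, are therefore not separate readings of each other or of Sult2a1 and Sult2a5. This list does not hold Sult2a8, which was lower in control females, and with it, over all 10 other genes named Sult that were tested, 7 were higher and 1 lower, with a median of 1.82. In AAI-treated females 1 of 9 was lower, Sult2a4, barely past the threshold with log2 signals of 15.89 and 14.89, and 0 were higher, and with Sult2a8 2 of 10 were lower. In AAI-treated males 1 of 8 was higher, Sult2a7, which was 9.72-fold higher with log2 signals of 9.05 and 12.33, and 0 were lower. With Sult2a8, 1 of 9 was higher and 1, Sult2a8 itself, was lower. Sult2a7 thus lay with Sult1e1 and Sult3a1 in size, whereas no other gene of the list passed 2-fold in males.

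Of 14 genes of PAPS and sulfate supply, 0 were at least 2-fold lower or higher after AAI in either sex, with log2 ratios from -0.59 to 0.87 in females and from -0.997 (Csad, just inside the threshold) to 0.55 in males and medians of 0.02 and -0.08. Between the control sexes 1 of the 14 was lower in females, Csad, with log2 signals of 13.27 and 14.58, and 0 were higher. Papss1 and Papss2, the PAPS synthases, had log2 ratios of 0.13 and -0.24 in females and of 0.08 and 0.37 in males. Of 6 genes of sulfatases and their activating factors, 1 was lower in AAI-treated males, the lysosomal arylsulfatase gene Arsa, with log2 signals of 11.93 in control and 10.64 in AAI-treated males, and 0 passed 2-fold in females after AAI. Between the control sexes 1 of the 6 was at least 2-fold lower in females, Arsa again, which was 2.94-fold lower, and 0 were higher.

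**Figure D3:**
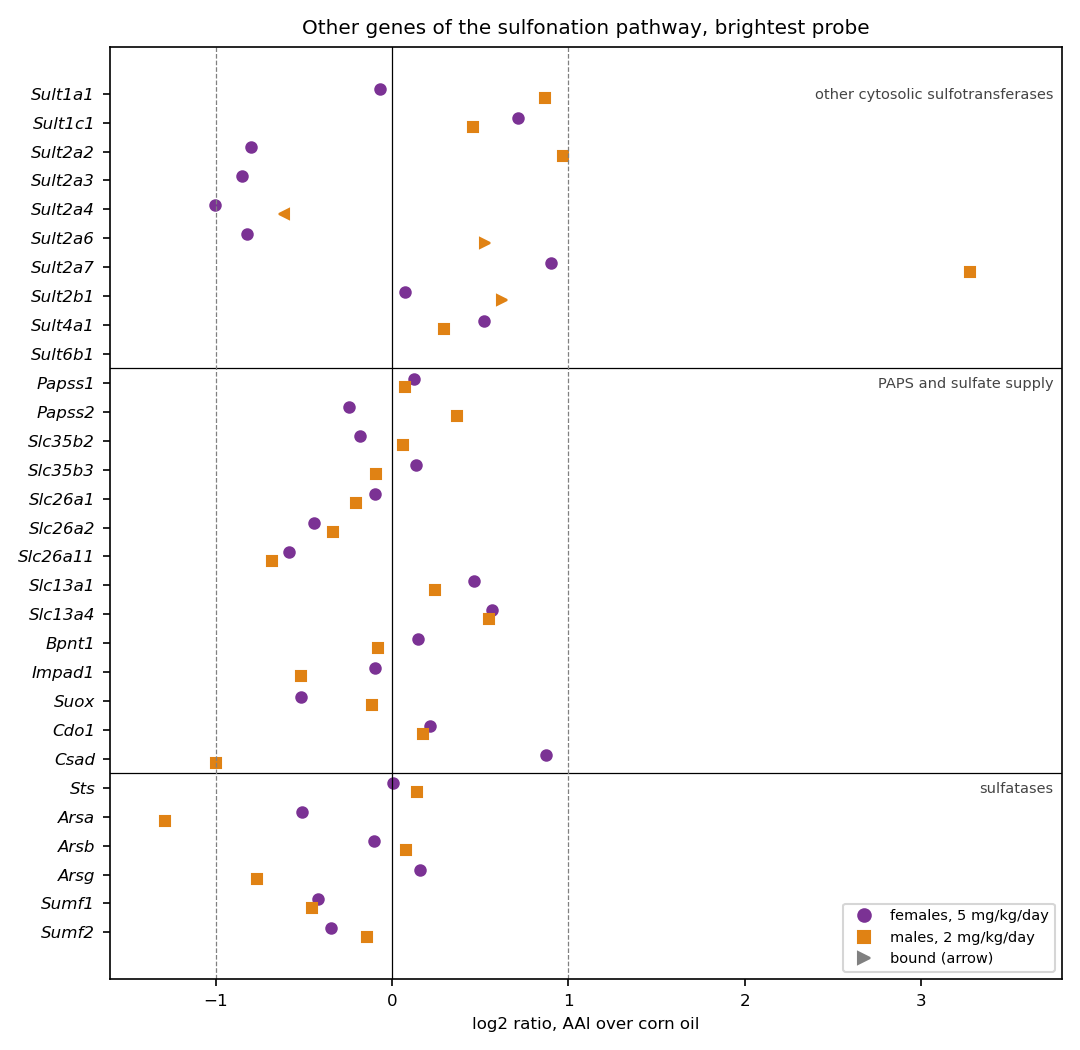
Log2 ratio of AAI over corn oil (x axis) for the other genes of the sulfonation pathway (y axis, brightest probe), with purple circles for females given 5 mg/kg/day, orange squares for males given 2 mg/kg/day and triangles for bounds. Sult6b1 was not well above background on any array and Sult2a3 on neither male array, so these have no symbol there. Sult2a7 in males, at 3.28, and Arsa in males, at -1.29, lay past the dashed lines of 2-fold, and Sult2a4 in females lay on the line.

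**Figure D4:**
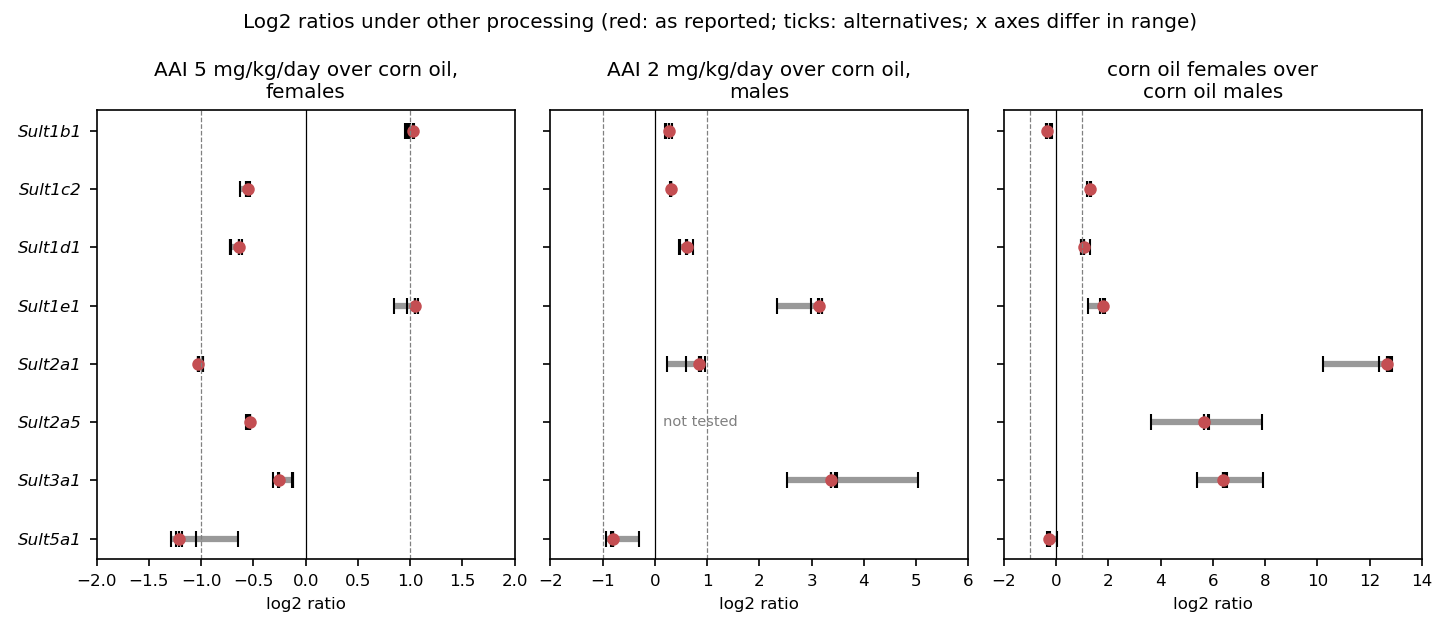
Log2 ratio (x axis, with a different range in each panel) of each sulfotransferase gene under other ways of processing the arrays (ticks), beside the reported value (red), with a grey bar over the whole range. In males the ratio of Sult1e1 ran from 2.34 to 3.20 and that of Sult3a1 from 2.53 to 5.03, all past the dashed line of 2-fold.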

How the data were processed

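Liver RNA pools were hybridized to SurePrint G3 Mouse GE 8x60K arrays with 1 dye (Cy3), all on 1 slide. Spots were read with Feature Extraction 10.5.1.1, and the authors deposited linear spot intensity values, background-subtracted and corrected for trends across the array, which are not normalized between arrays. The deposited series table holds the same raw intensity and an intensity normalized by the authors with quantiles, used here as an alternative. Most values of 2 of the arrays (vehicle in females, AAI in males) were saved with 3 significant digits. The array annotation uses build mm9. The members and the gene lists were chosen with earlier results of these data known.

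Here log2 of the processed intensity was taken, control and outlier-flagged spots were left out, spots of a probe were averaged and the 56495 probes with a value on every array were quantile normalized over the 4 arrays. Each of 37021 genes was represented by its brightest probe. The error that Feature Extraction gives for a spot was 10.0% of the signal for bright probes and up to 100% for Sult2a5 in corn oil-treated males. The number of arrays limits the precision. No test was run. The computation used Python 3 and, for normexp, limma 3.58.1 in R 4.3.3, and the ratio step was tested on simulated data. The genes named were the 8 sulfotransferases, pathway genes past 2-fold in either sex, the 3 nearest genes of 3 members and at most 3 genes of a marker list; Papss1, Papss2 and other genes outside this rule were chosen after their values were seen. Of the listed sulfotransferases 2 had no probe. Of the 13 probes, 11 had an accession found in the RefSeq gene table. Scaling, background correction, filters, probe averaging and threshold were varied.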

Additional observations from a re-analysis of the deposited data

Results flagged for a closer look

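For 4 genes the log2 ratio of AAI over corn oil had opposite signs in the sexes and was larger than the SD between probes in both, which drew attention to them. Sult1d1 had -0.64 in females and 0.61 in males, and both of its probes gave these signs. Sult1c2 had -0.56 and 0.30, and Sult2a1 had -1.03 and, as a bound, 0.85. The Sult2a1 signal in control males, 4.25, was not well above background. Its probe is also assigned to a Sult2a4 transcript, so the Sult2a1 ratios are uncertain between these genes. The Sult2a4 probe, also annotated to Sult2a1, went the other way in males, with a bound of -0.615. The brightest Sult2a6 probe, annotated to Sult2a1 as well, had a bound of 0.53 there. Sult3a1 had -0.26, barely past the SD, and 3.38, and its dimmer probe had -0.01 in females. With normexp background correction Sult2a1 in males, at 0.23, and Sult3a1 in females, at -0.12, lay under the SD between probes. The difference between the sexes was not tested, since each group had 1 array, and it cannot be told apart from the dose, 5 mg/kg/day in females and 2 mg/kg/day in males.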

How the results depend on the processing

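Of 9 alternatives, the 3-fold threshold concerns counts only, and between 6 and 8 of the others gave a value for each log2 ratio of a single gene. Of 23 such ratios 22 kept their sign, the exception being Sult5a1 between the control sexes, with -0.27 as reported and 0.01 over the mean of its probes. Of 179 recomputed ratios, 16 moved by more than the SD between probes and 0 of those past 2-fold changed sign. In AAI-treated females the count of lower genes was 2 as reported, 1 with 75th percentile scaling, with normexp, without detrending or with the mean of probes, and 0 at 3-fold. The count of higher genes there was 2 as reported, 1 with the mean of probes, and 0 with normexp, without detrending or at 3-fold. In males the count of lower genes was 0 throughout, the count of higher genes was 2 and, without a filter on dim probes, 3, and the median log2 ratio was 0.61 as reported and 0.30 with normexp. Between the control sexes the count of genes higher in females was 6 as reported, 5 with normexp and 4 without detrending, with the filter on both arrays or at 3-fold. Sult2a5 had no value without detrending, and neither Sult2a1 nor Sult2a5 had one with the filter on both arrays. The median there was 1.54 as reported, 1.20 with normexp, 1.28 without detrending and 1.17 for probes well above background on both arrays, where the dimmest male signals drop out. The cause of the other shifts was not tested. No paired analysis was possible because each group had 1 array. Signals near background limit the ratios of Sult2a1, Sult2a5 and the dimmer Sult3a1 probe in males to bounds.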

Other observations

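In the same 4 pools, Sult2a8, a bile acid sulfotransferase gene outside the lists, was chosen after its values were seen. Its log2 signal was 15.06 in control and 13.93 in AAI-treated females, and 16.83 and 14.59 in the corresponding males. It was 3.40-fold lower in control females than in control males, the opposite direction to Sult2a1 and Sult2a5, and lower after AAI in both sexes, 2.18-fold in females and 4.69-fold in males.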
